A study of Mus musculus with 12 samples.

Results

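The genes described here encode 10 enzymes that turn cholesterol into bile acids and join the bile acids to an amino acid: Cyp7a1, Cyp8b1, Cyp27a1, Cyp7b1, Hsd3b7, Akr1d1, Amacr, Acox2, Slc27a5 and Baat. They were chosen by name from the pathway, and every probe set annotated to one of them alone was taken, which gave 14 probe sets of the 22690 on the array and 10 of its 12393 genes. Cyp7a1, Cyp7b1, Akr1d1 and Baat are read by 2 probe sets each, and the other 6 genes by 1. All 14 probe sets passed the filter on low signals, and 13 of them reached the array median on all 12 arrays.

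Expression was measured in liver RNA from 12 male mice on Affymetrix MOE430A arrays, with 1 array per mouse and 3 mice in each of 4 groups. KO_12M and KO_3M are mice homozygous for the Mdr2 knockout at 12 and at 3 months of age, and Het_12M and Het_3M are heterozygous mice at the same ages. The controls thus carry the knocked-out allele on one chromosome and are not wild type. Mdr2 is the earlier name of Abcb4, the transporter that moves phospholipid into bile, and its loss in mice gives chronic bile duct inflammation and later liver cancer. Values are MAS 5.0 signals, a linear intensity that the authors had brought to a common scale. Levels of single genes are compared only between mice for the same probe set. The summed signals of marker lists add different probe sets, so the brightest weigh most in them.

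Bile acids are made in hepatocytes along a classic and an acidic route. Cyp7a1 hydroxylates the cholesterol ring and sets the pace of the classic route, whereas Cyp27a1, a mitochondrial side-chain hydroxylase, and Cyp7b1, an oxysterol hydroxylase, start the acidic route. Hsd3b7 and Akr1d1 reshape the sterol ring, Cyp8b1 adds the hydroxyl group that directs products towards cholic acid, Amacr and Acox2 handle the side chain in peroxisomes, and Slc27a5 and Baat activate the acid and conjugate it to taurine or glycine. Bile acids that return to the liver bind the receptor Nr1h4 (FXR), which induces Nr0b2 (SHP), a repressor of Cyp7a1 and Cyp8b1.

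Promoter sequence was at hand for 5 of the 10 genes (RefSeq, GRCm38.p6), and the 250 bases before the start site are shown for Cyp8b1 and Cyp27a1 because both had lower signals in knockout livers below. The windows lie at chr9:121916306-121916555 on the minus strand and chr1:74713285-74713534 on the plus strand. Capitals mark matches on either strand to TCAAGG (the core bound by Nr5a2), CAAAGTCCA (a site for Hnf4a), AGGTCA (a nuclear receptor element), TGACGTCA (a cyclic AMP response element) or TATAAA (the box found ahead of many start sites).
Cyp8b1: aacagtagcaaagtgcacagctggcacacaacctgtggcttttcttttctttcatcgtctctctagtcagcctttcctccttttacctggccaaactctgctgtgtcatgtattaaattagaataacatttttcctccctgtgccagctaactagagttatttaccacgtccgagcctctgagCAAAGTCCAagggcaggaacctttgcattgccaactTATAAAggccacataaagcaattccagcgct
Cyp27a1: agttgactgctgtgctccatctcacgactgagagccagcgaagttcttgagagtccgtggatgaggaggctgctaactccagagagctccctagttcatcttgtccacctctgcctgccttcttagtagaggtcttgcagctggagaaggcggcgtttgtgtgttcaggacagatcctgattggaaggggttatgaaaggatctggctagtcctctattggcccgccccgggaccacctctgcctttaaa
Cyp8b1 held CAAAGTCCA, whose first base lies 67 bases before the start site, and TATAAA, whose first base lies 31 bases before it. Over the same 250 bases, CAAAGTCCA occurred in 0.38% and TATAAA in 12.37% of 32851 promoters. Cyp27a1, Hsd3b7 and both annotated starts of Acox2 held no match. Akr1d1 held TCAAGG, found in 12.46% of promoters, and AGGTCA at 2 positions, found in 14.02%, all on the minus strand and with TCAAGG overlapping one AGGTCA. TGACGTCA, found in 1.55% of promoters, occurred in none of the windows. A match describes the letters and is not a bound site.

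Several measures differed between the groups before any gene was compared. Abcb4 itself had signals of 243.4 to 385.7 in the 6 knockout livers, against 591.8 to 763.3 in the heterozygous livers, and whether its probes lie in the stretch removed from the gene cannot be read from the files. The actin 3' to 5' signal ratio, a measure of RNA integrity, was 2.79 ± 0.44 in KO_12M and 3.64 ± 0.56 in Het_12M, and 4.92 ± 1.59 in KO_3M and 7.0 ± 1.64 in Het_3M (SD, n = 3 each). The arrays were scanned in 3 runs of 4, and no run contained knockout and heterozygous arrays of the same age. Run 3 held all KO_3M arrays and KO_12M mouse 3, run 2 held KO_12M mice 1 and 2 with Het_3M mice 2 and 3, and run 1 held all Het_12M arrays and Het_3M mouse 1. A knockout effect at a single age can therefore not be read within a run, and values with scan run as a block, which reach it through arrays of the other age, stand beside the results. At 12 months the blocked value is linked through Het_3M mouse 1 alone, and KO_12M mouse 3 does not enter it. At 3 months it is linked through KO_12M mouse 3 alone. Each blocked knockout effect thus leans on 1 array, and a call lost under the block carries that limit. KO_12M mouse 3 stood apart in the spread of its signals, with a highest signal of 6328.3, against at least 9470.5 on the other arrays. The source label of KO_3M mouse 1 and Het_3M mouse 1 names the other age, and the title was followed.

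At 12 months, knockout livers had lower signals of 4 of the 10 enzymes, Cyp7b1, Cyp8b1, Cyp27a1 and Amacr, and higher signals of none. At 3 months, Cyp7b1 and Cyp8b1 were lower and Cyp7a1 was higher, and 7 enzymes did not pass. The threshold for a call was an adjusted p (Benjamini-Hochberg, over all 8217 tested genes) under 0.05 in limma, and of these genes 10.8% were called at 12 months and 22.1% at 3 months. Lower calls made up 4.43% of all genes and higher calls 6.39% at 12 months, against 12.3% lower and 9.89% higher at 3 months, and 1.76% were lower at both ages, as were 2 of the 10 enzymes. The median log2 change of the enzymes was -0.33 at 12 months, where that of all genes was -0.003, and -0.20 at 3 months, where that of all genes was -0.06. With scan run as a block, 1 enzyme, Cyp7b1, was called at 12 months and 0 at 3 months, where 1.39% and 3.54% of all genes were called. Without KO_12M mouse 3, 3 enzymes were called at 12 months (Amacr did not pass, adjusted p = 0.14) and 3 at 3 months. Of all genes 8.86% and 23.7% were called in that fit. Without the pair of arrays whose source label differs, 3 enzymes were called at 12 months (Amacr did not pass, adjusted p = 0.0609) and 4 at 3 months, with Akr1d1 added. The share of all genes called was then 10.7% at 12 months and 12.9% at 3 months. In whole liver, fewer hepatocytes and less RNA per hepatocyte cannot be told apart.

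**Figure D1:**
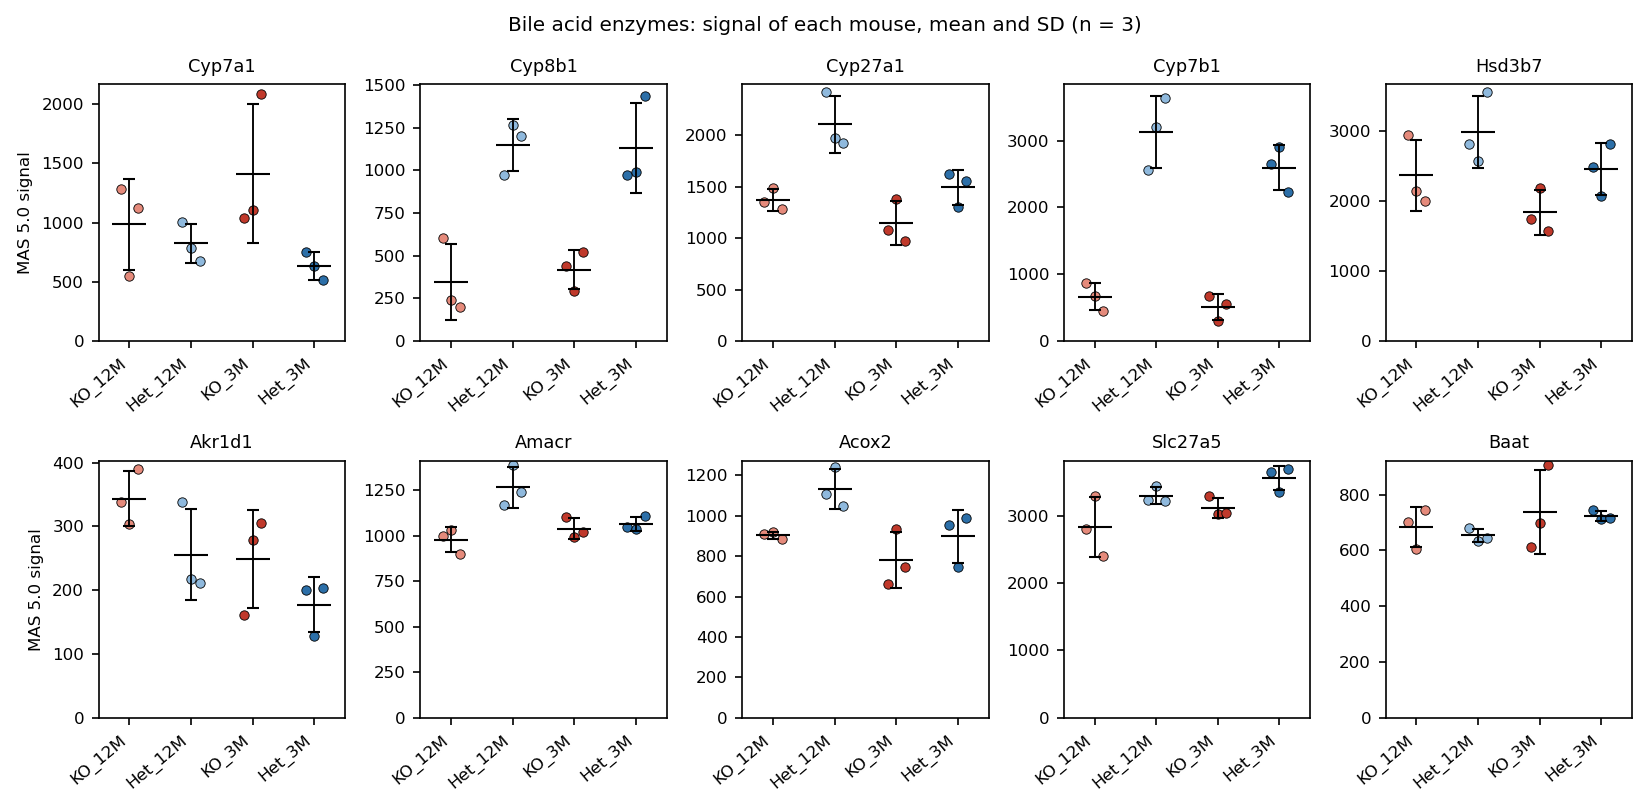
MAS 5.0 signal (linear, from 0) of the 10 enzymes in KO_12M, Het_12M, KO_3M and Het_3M livers. Points are mice, bars the mean and SD of 3 mice. Cyp7b1 and Cyp8b1 points of the knockout groups lie below all heterozygous points at both ages, and Cyp7a1 points lie above only at 3 months.

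**Figure D2:**
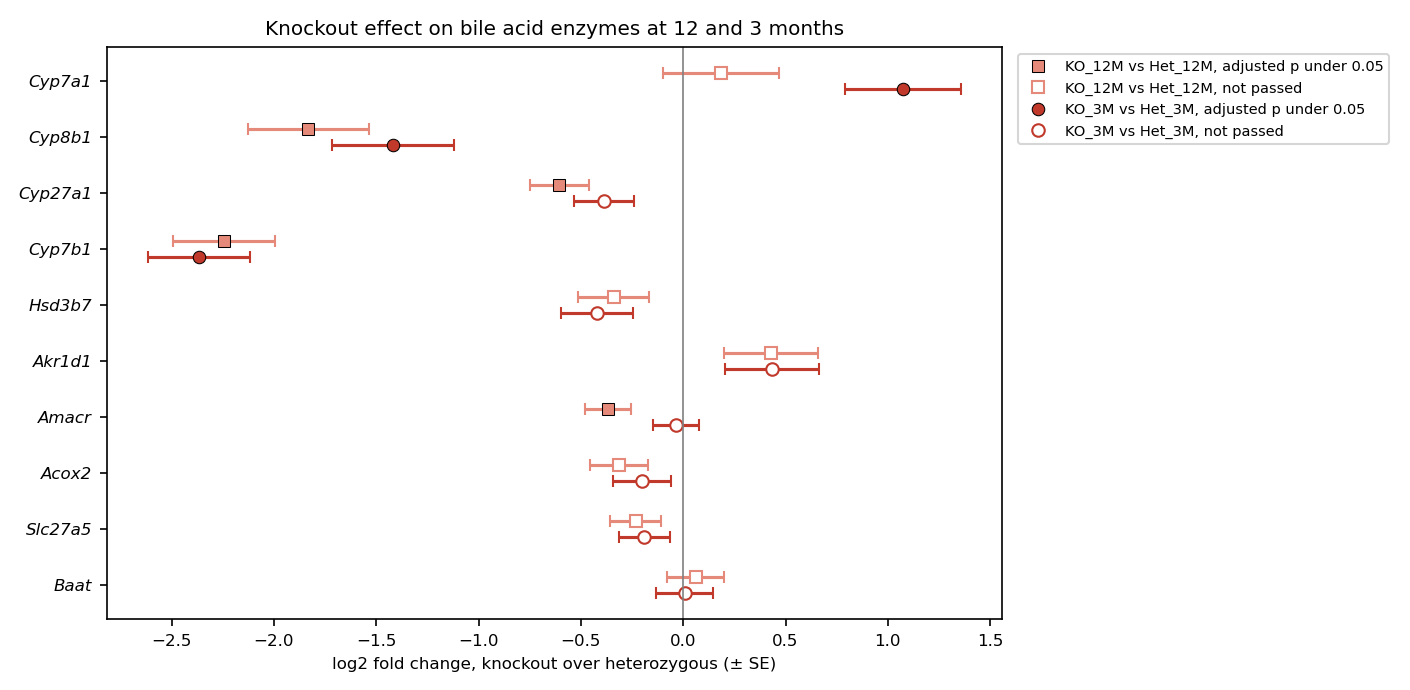
Log2 fold change of knockout over heterozygous livers (x axis) with its limma SE for each enzyme at 12 months (squares) and 3 months (circles); filled symbols have an adjusted p under 0.05. Cyp7b1 has the lowest values at both ages, -2.24 and -2.37, and Cyp7a1 at 3 months is the only filled symbol right of 0.

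Markers of hepatocytes and of other liver cells were read in the same livers. Of all genes, 6.39% were called higher and 4.43% lower at 12 months, and 9.89% higher and 12.3% lower at 3 months. The hepatocyte list (9 of 10 genes tested, among them Alb and Ttr) had no gene called at either age, and across the alternatives 0 to 1 were called higher and 0 to 2 lower at 12 months, and 0 to 2 higher and 0 lower at 3 months (2 higher with scan run as a block). Its median log2 change was -0.32 at 12 months, close to the -0.33 of the enzymes, and -0.001 at 3 months, against -0.20. Across the alternatives the hepatocyte median ran from -0.424 to 0.015 at 12 months and from -0.073 to 0.658 at 3 months. At 12 months it was -0.009 under quantile normalization and 0.015 with scan run as a block. The enzyme median is not given for those alternatives, so the closeness was read on the common trimmed mean without a block. The summed signal of the hepatocyte list was 38880.9 to 61687.9 in KO_12M and 59952.2 to 66679.0 in Het_12M, and 63473.8 to 74041.7 in KO_3M and 63960.6 to 70803.4 in Het_3M. The summed signals thus overlapped between genotypes at both ages. The lowest was that of KO_12M mouse 3, the array whose highest signal was 6328.3. At 12 months the overlap came from the highest KO_12M sum alone, since the KO_12M median, 59009.8, lay below every Het_12M sum. Of 9 tested macrophage markers, 7 rose and 0 fell at 12 months, and 8 rose and 1 fell at 3 months. Cd14, 1 of the 9, reached the array median in knockout livers alone and so passed the filter through the genotype where it is high. Its part in these counts is a description. The summed signal of all 10 macrophage markers on the array was 3872.3 to 4634.4 in KO_12M and 1936.2 to 2188.6 in Het_12M, and 3774.3 to 6043.6 in KO_3M and 1869.0 to 1942.8 in Het_3M. The macrophage sums of the genotypes, which include Cd14, did not overlap at either age. In the fit with a scan run block 1 marker was called higher at 12 months and 4 at 3 months.

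Of 9 tested stellate cell and fibroblast markers, 6 rose and 0 fell at each age, where 6.39% and 9.89% of all genes were called higher. Acta2 (111 against 145) and Des (48.1 against 65.4) alone of the 9 averaged lower in KO_3M than in Het_3M. The summed signal of the 9 was 2622.2 to 3134.5 in KO_12M and 1134.3 to 1575.5 in Het_12M, and 2904.6 to 3628.0 in KO_3M and 1184.9 to 1349.8 in Het_3M. Of the 7 cholangiocyte markers on the array 3 were tested, and 2 of these, Krt23 and Epcam, reached the array median in knockout livers alone and so passed the filter through the genotype where they are high. The cholangiocyte sum was 532.4 to 822.4 in KO_12M and 195.1 to 214.3 in Het_12M, and 651.9 to 749.9 in KO_3M and 253.3 to 308.3 in Het_3M. Neither list overlapped between genotypes in its sum at either age, but the cholangiocyte sum includes Krt23 and Epcam. Its brightest marker, Cdh1, averaged 406 in KO_12M and 121 in Het_12M, and 408 in KO_3M and 175 in Het_3M. Cftr alone of the 7 averaged lower in knockout livers at both ages. Of the 3 tested cholangiocyte markers, Cdh1 was called higher at both ages. Krt23 and Epcam are given as a description and get no test. In the fit with a scan run block, 1 stellate marker was called higher at 12 months and 5 at 3 months. Among 9 tested genes of endothelial, neutrophil, T and NK, and B cell lists, 0 were called at 12 months, and at 3 months 1 endothelial, 1 T and NK and 1 B cell gene fell, whereas under median scaling 2 endothelial genes rose, 1 fell and no B cell gene was called. No marker of any list was at 0, but several lay at the dim end of the arrays. Of the 7 cholangiocyte markers, 6 in Het_12M, 4 in Het_3M, 2 in KO_12M and 0 in KO_3M had a lowest value below 9.4. That is the highest 10th percentile of the arrays. The part of these markers in the enzyme results was not tested.

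Cyp7b1, the oxysterol hydroxylase of the acidic route and in mice more abundant in male than in female liver, showed the largest change of the 10 enzymes at both ages. Its signal was 862.9, 669.2 and 457.4 in the KO_12M livers, against 2562.7, 3198.8 and 3634.6 in the Het_12M livers. It was 682.7, 300.4 and 561.2 in the KO_3M livers, against 2653.1, 2905.5 and 2229.8 in the Het_3M livers. Every knockout liver lay below every heterozygous liver, and the highest knockout value, 862.9, was below the lowest heterozygous value, 2229.8. The knockout mean was 21.2% of the heterozygous mean at 12 months and 19.8% at 3 months. On the log2 scale it fell by 2.24 ± 0.25 at 12 months (SE, adjusted p = 1.85e-05) and fell by 2.37 ± 0.25 at 3 months (adjusted p = 7.78e-06).

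The other probe set of Cyp7b1, 1421074_at, belongs to the design class meant for a single gene, whereas that of 1421075_s_at allows its probes to match related transcripts. It read 831.3, 493.7 and 388.1 in KO_12M against 2578.4, 3838.6 and 3062.0 in Het_12M, and 522.4, 373.3 and 356.3 in KO_3M against 2207.7, 1965.3 and 1898.5 in Het_3M. The groups did not overlap, and in the fit over all probe sets it fell by 2.49 ± 0.22 at 12 months (adjusted p = 2.6e-06) and fell by 2.25 ± 0.22 at 3 months (adjusted p = 5.93e-06). With scan run as a block, the representing probe set of Cyp7b1 gave -1.95 ± 0.44 at 12 months (adjusted p = 0.0451) and -1.63 ± 0.44 at 3 months (adjusted p = 0.059), so the call at 3 months was lost. It was called in all 29 alternatives at 12 months and in 28 of 29 at 3 months.

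Cyp8b1, the sterol hydroxylase that directs the classic route to cholic acid, was lower in knockout livers at both ages. Its signal was 604.9, 239.2 and 199.9 in KO_12M, against 973.8, 1263.3 and 1201.9 in Het_12M. It was 439.3, 294.9 and 519.1 in KO_3M, against 971.9, 988.7 and 1436.8 in Het_3M. No knockout value reached the lowest heterozygous value, and KO_12M mouse 1 was the highest of the knockout livers. The knockout mean was 30.4% of the heterozygous mean at 12 months and 36.9% at 3 months. Cyp8b1 fell by 1.83 ± 0.30 at 12 months (adjusted p = 0.000633) and fell by 1.42 ± 0.30 at 3 months (adjusted p = 0.00311). A scan run block gave -1.83 ± 0.52 at 12 months (adjusted p = 0.12) and -0.63 ± 0.52 at 3 months (adjusted p = 0.505), and both calls were lost. It kept its call in 28 of 29 alternatives at each age.

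Cyp7a1, the hydroxylase that sets the pace of the classic route and whose RNA follows the daily rhythm in rodents, was higher in knockout livers at 3 months. Its signal was 1034.9, 1109.7 and 2085.9 in KO_3M, against 748.8, 636.8 and 516.3 in Het_3M. The groups did not overlap, and KO_3M mouse 3 was far above the other knockout livers of that age. The knockout mean was 222% of the heterozygous mean, and the log2 change was 1.08 ± 0.28 (adjusted p = 0.0127). Without KO_3M mouse 3 it was 0.76 (adjusted p = 0.0645), without Het_3M mouse 3 it was 0.94 (adjusted p = 0.0524), and with scan run as a block it was 0.79 ± 0.54 (adjusted p = 0.422), each of which ended the call.

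At 12 months the Cyp7a1 signal was 1283.1, 549.4 and 1123.1 in KO_12M, against 1007.0, 784.3 and 679.3 in Het_12M. The groups overlapped, since KO_12M mouse 2 had the lowest value of all 6 livers, and the log2 change was 0.19 ± 0.28 (adjusted p = 0.752). The other probe set, 1422100_at, was dim, at 89.5, 52.6 and 90.5 in KO_12M against 92.2, 69.1 and 44.2 in Het_12M. It read 60.5, 67.2 and 110.6 in KO_3M against 7.3, 17.5 and 5.7 in Het_3M. Of the Het_3M values, those of mice 1 and 3 lay near the 10th percentile of their arrays, which was 5.7 to 6.0, and that of mouse 2 lay above it. In the probe-set fit its log2 change was 0.16 ± 0.30 at 12 months (adjusted p = 0.812). It passed the filter on 7 of 12 arrays, none of them Het_3M, so its difference from that group is a description and gets no test.

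Cyp27a1, the mitochondrial side-chain hydroxylase, was lower in knockout livers at 12 months. Its signal was 1350.9, 1486.4 and 1281.7 in KO_12M, against 2419.1, 1974.1 and 1921.4 in Het_12M. The groups did not overlap, the knockout mean was 65.2% of the heterozygous mean, and the gene fell by 0.61 ± 0.15 (adjusted p = 0.0115). Its call was lost without Het_12M mouse 1 (-0.50, adjusted p = 0.0685) and with scan run as a block (-0.37 ± 0.27, adjusted p = 0.674). At 3 months it read 1079.4, 1384.6 and 975.1 in KO_3M, against 1623.1, 1299.8 and 1557.9 in Het_3M. KO_3M mouse 2 overlapped with Het_3M mouse 2, and the log2 change of -0.39 ± 0.15 did not pass (adjusted p = 0.0663). It passed in 4 of 29 alternatives at 3 months, among them the actin ratio as a covariate (-0.64, adjusted p = 0.00662).

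Hsd3b7 and Akr1d1, the enzymes that oxidise the sterol ring and reduce its double bond, did not pass at either age. The Hsd3b7 signal was 2943.7, 2137.4 and 2002.4 in KO_12M against 2816.0, 2566.1 and 3554.8 in Het_12M, and 1745.5, 2188.9 and 1567.7 in KO_3M against 2485.6, 2066.9 and 2814.1 in Het_3M. The genotypes overlapped at both ages, with log2 changes of -0.34 ± 0.17 (adjusted p = 0.25) at 12 months and -0.42 ± 0.17 (adjusted p = 0.0941) at 3 months. With the actin ratio as a covariate the 3-month change of Hsd3b7 was -0.66 and passed (adjusted p = 0.032).

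The probe sets of Akr1d1 differed in the sign of the 3-month difference. The brighter one, 1425771_at, read 338.3, 303.0 and 389.3 in KO_12M against 338.4, 217.9 and 210.4 in Het_12M, and 160.9, 279.0 and 305.1 in KO_3M against 199.6, 127.5 and 203.8 in Het_3M. Its log2 change was 0.43 ± 0.23 at both ages (adjusted p = 0.271 at 12 months and 0.186 at 3 months), and its groups overlapped at both. The other one, 1455100_at, read 237.7, 224.8 and 233.5 in KO_12M against 215.0, 158.7 and 252.4 in Het_12M, and 195.5, 232.2 and 209.3 in KO_3M against 302.0, 250.4 and 275.2 in Het_3M. Its values overlapped at 12 months (0.16 ± 0.15, adjusted p = 0.577) and did not overlap at 3 months, where the log2 change was -0.35 ± 0.15 (adjusted p = 0.112). No direction can thus be given for Akr1d1 at 3 months. The representing probe set passed there in 4 of 29 alternatives, for instance without KO_3M mouse 1 (0.70, adjusted p = 0.0365), and the mean of both probe sets gave 0.04.

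Amacr, the racemase of bile acid CoA intermediates, was lower in KO_12M by a narrow margin. Its signal was 997.1, 1034.1 and 901.2 in KO_12M, against 1168.6, 1386.4 and 1242.4 in Het_12M. The groups did not overlap, the knockout mean was 77.2% of the heterozygous mean, and the log2 change was -0.37 ± 0.11 (adjusted p = 0.0468). The call held in 7 of 29 alternatives, with adjusted p from 0.0308 to 0.58. At 3 months Amacr read 1103.6, 994.9 and 1019.9 in KO_3M, against 1049.1, 1038.6 and 1110.7 in Het_3M, with a log2 change of -0.04 ± 0.11 (adjusted p = 0.85). These values lay within a narrow range in both genotypes.

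Acox2, the peroxisomal oxidase that shortens the side chain, read 910.2, 918.8 and 885.1 in KO_12M, against 1108.7, 1241.7 and 1047.4 in Het_12M. The groups did not overlap, but the log2 change of -0.32 ± 0.14 did not pass (adjusted p = 0.182) except with the actin ratio as a covariate (-0.47, adjusted p = 0.0307). At 3 months it read 660.3, 934.9 and 746.6 in KO_3M, against 956.4, 748.7 and 991.1 in Het_3M, and the groups overlapped (-0.20 ± 0.14, adjusted p = 0.322).

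Neither conjugation enzyme was called at either age. Slc27a5, the ligase that activates bile acids with CoA, read 2805.7, 3290.2 and 2401.5 in KO_12M against 3233.9, 3448.4 and 3229.2 in Het_12M, and 3291.6, 3030.8 and 3045.9 in KO_3M against 3651.1, 3356.7 and 3692.1 in Het_3M. The groups overlapped at 12 months (-0.23 ± 0.12, adjusted p = 0.273) and did not overlap at 3 months, where the knockout mean was 87.6% of the heterozygous mean and the change did not pass (-0.19 ± 0.12, adjusted p = 0.289). Baat, which joins taurine or glycine to the acid, read 701.3, 605.7 and 746.3 in KO_12M against 681.0, 634.8 and 645.2 in Het_12M, and 610.5, 697.9 and 904.5 in KO_3M against 745.2, 713.0 and 715.8 in Het_3M. Its groups overlapped at both ages, with log2 changes of 0.06 ± 0.14 (adjusted p = 0.844) and 0.01 ± 0.14 (adjusted p = 0.978). Its dimmer probe set, 1419001_at, read 167.6, 148.5 and 141.5 in KO_12M against 278.2, 201.6 and 200.1 in Het_12M, and 91.1, 97.5 and 218.8 in KO_3M against 181.7, 210.9 and 132.7 in Het_3M. It lay wholly below Het_12M at 12 months, at 67.3% of the heterozygous mean, and overlapped at 3 months. Its log2 changes did not pass (-0.51 ± 0.25, adjusted p = 0.229 at 12 months and -0.41 ± 0.25, adjusted p = 0.256 at 3 months) and were opposite in sign to the brighter one. The heterozygous groups of the brighter probe set were tight, with an SD of 24.2 in Het_12M and 17.8 in Het_3M, against 71.8 in KO_12M and 151 in KO_3M.

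**Figure D3:**
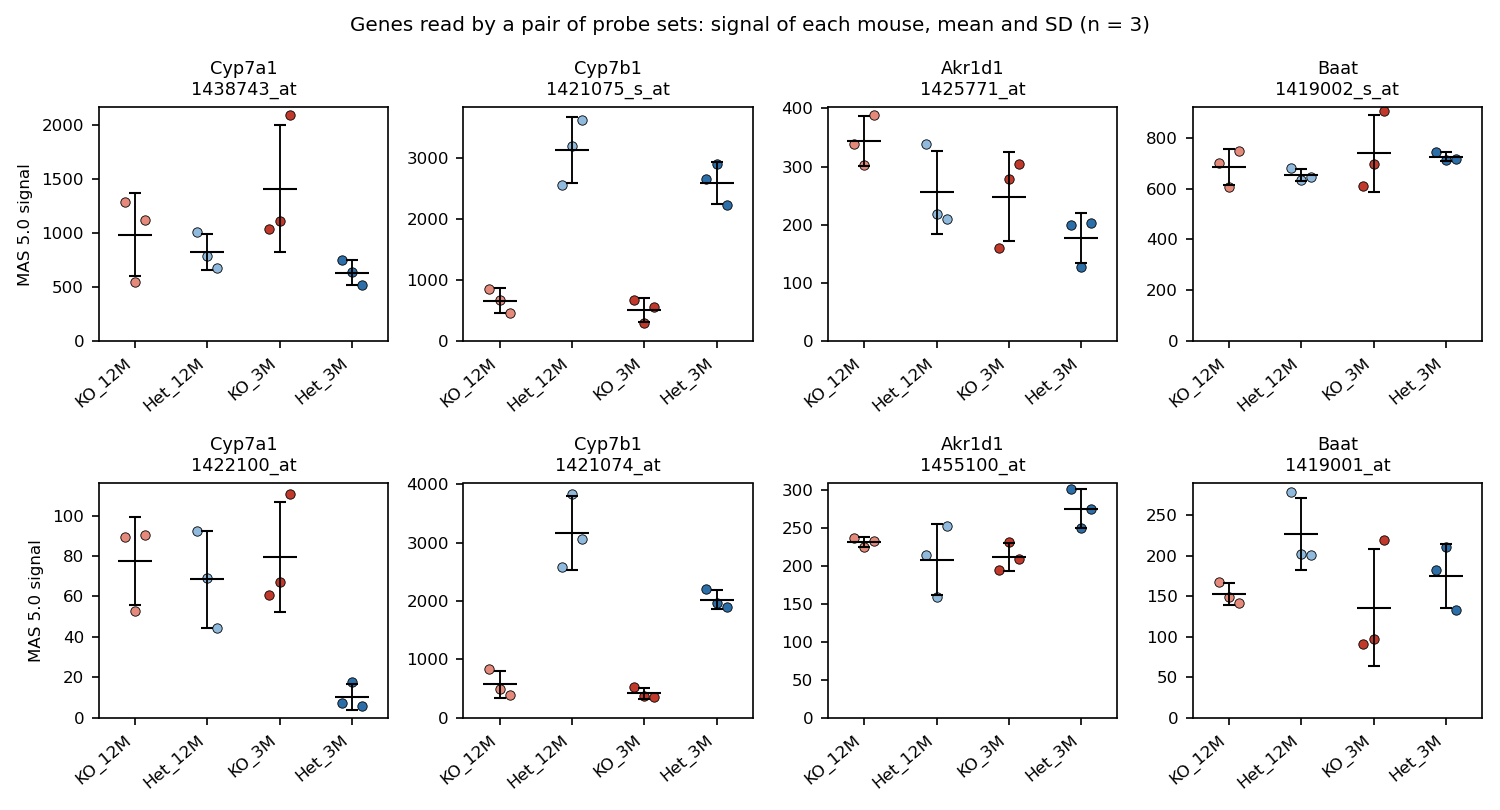
MAS 5.0 signal (linear, from 0) of the brighter (top) and dimmer (bottom) probe set of Cyp7a1, Cyp7b1, Akr1d1 and Baat by group; points are mice, bars the mean and SD of 3 mice. The Cyp7b1 pair shows the same drop in knockout livers, the dimmer Cyp7a1 probe set averages 10.2 in Het_3M, and the Akr1d1 pair differs in sign at 3 months.

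Counted over the 13 probe sets that reached the median in every group, 4 were lower at 12 months and 0 higher, and at 3 months 3 were lower and 1 higher, where 9.65% and 21.4% of 11881 probe sets were called. The lower calls at each age include both probe sets of Cyp7b1. Amacr is not among the 4, since it did not pass in the limma fit over all probe sets (adjusted p = 0.0534). Counted by overlap of the genes' values, 5 enzymes lay wholly below the heterozygous livers at 12 months (Cyp8b1, Cyp27a1, Cyp7b1, Amacr and Acox2) and 0 wholly above. At 3 months 3 lay wholly below (Cyp8b1, Cyp7b1 and Slc27a5) and 1 wholly above (Cyp7a1). Among all genes, 13.9% lay wholly below and 15.2% wholly above at 12 months, and 23.5% and 16.8% at 3 months. An exact permutation test of 3 against 3 mice cannot give a two-sided p below 0.1, so single genes were tested only in the fit over all genes.

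The age comparisons ask what differed between older and younger livers of 1 genotype. None of the 10 enzymes was called between KO_12M and KO_3M, where 9.43% of all genes were, and 0 had an unadjusted p under 0.05. All 10 overlapped between these groups, whereas 30% of all genes did not. Cyp7a1 had the largest difference in size, -0.52 ± 0.28 (adjusted p = 0.233), followed by Akr1d1 with 0.48 ± 0.23 (adjusted p = 0.176). Without KO_12M mouse 1, Cyp8b1 was lower at 12 months (-0.85, adjusted p = 0.0375). Under median scaling Cyp7a1 (-0.86), Slc27a5 (-0.49), Baat (-0.42) and Amacr (-0.42) were called lower, with the median of all genes at -0.22, against 0.09 on the common trimmed mean, and under quantile normalization Hsd3b7 was called higher (0.60, adjusted p = 0.0497).

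Between Het_12M and Het_3M none of the 10 enzymes was called either, where 0.682% of all genes were, and 4 had an unadjusted p under 0.05. These were Cyp27a1 (0.49 ± 0.15, adjusted p = 0.118), Acox2 (0.34 ± 0.14, adjusted p = 0.275), Amacr (0.24 ± 0.11, adjusted p = 0.33) and Akr1d1 (0.49 ± 0.23, adjusted p = 0.33). The same 4 lay wholly above in Het_12M and Baat wholly below, where 12% and 10.6% of all genes did. Of the 13 probe sets that reached the median in every group none was called, where 1.11% of all probe sets were. The brighter probe set of Cyp7a1 gave 0.37 ± 0.29 (adjusted p = 0.575).

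The interaction asks whether the knockout effect at 12 months differed from that at 3 months, and none of the 10 enzymes passed, where 1.06% of all genes did. Cyp7a1 alone had an unadjusted p under 0.05, with -0.89 ± 0.40 (adjusted p = 0.282). Amacr and Cyp27a1, called at 12 months and not at 3, had interactions of -0.33 ± 0.16 (adjusted p = 0.322) and -0.22 ± 0.21 (adjusted p = 0.639). For none of these was a difference between the ages shown.

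The runs in which the arrays were scanned could not be separated fully from the groups, and the signals within them are given for that reason. In run 2, which held KO_12M mice 1 and 2 and Het_3M mice 2 and 3, genotype and age both differ. There Cyp7b1 read 862.9 and 669.2 in the knockout livers, against 2905.5 and 2229.8 in the heterozygous livers, and Cyp8b1 read 604.9 and 239.2 against 988.7 and 1436.8. Both were lower in each knockout liver of the run. Cyp7a1 read 1283.1 and 549.4 in the knockout livers of run 2, against 636.8 and 516.3, and Cyp27a1 read 1350.9 and 1486.4, against 1299.8 and 1557.9, so both overlapped. In run 3, which held knockout livers only, KO_12M mouse 3 read 1123.1 for Cyp7a1, within the KO_3M range of 1034.9 to 2085.9.

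**Figure D4:**
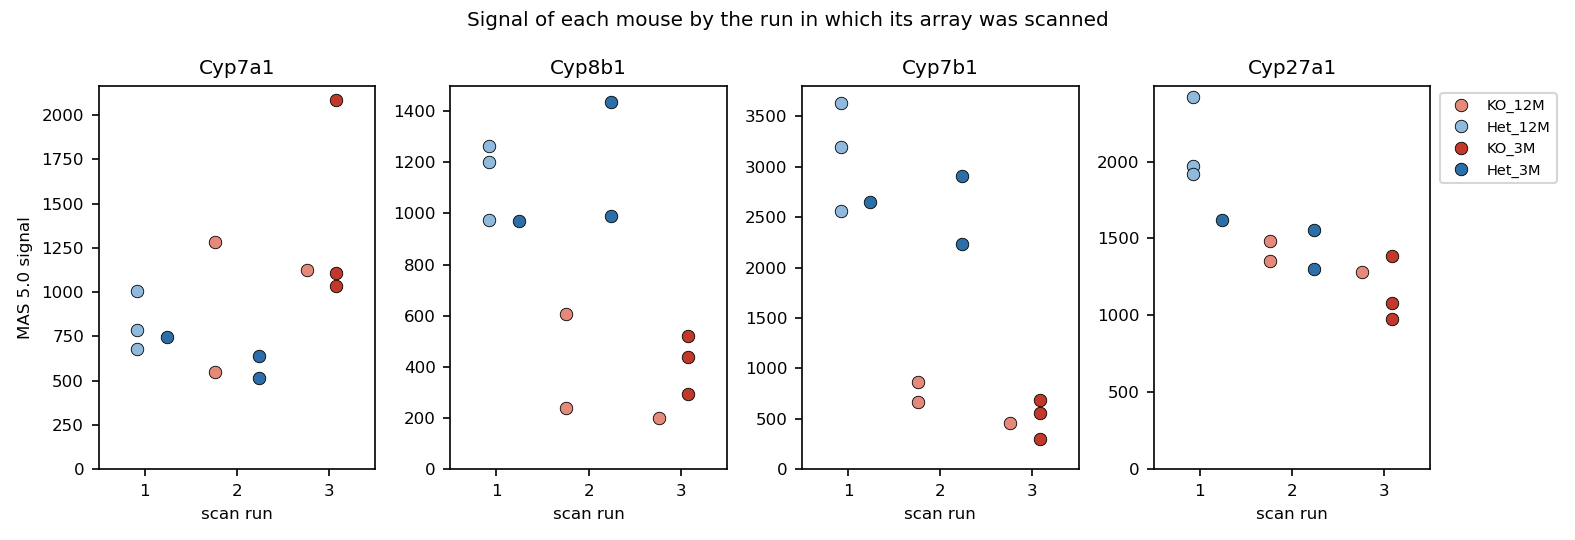
MAS 5.0 signal (linear, from 0) of Cyp7a1, Cyp8b1, Cyp7b1 and Cyp27a1 in each mouse (points, coloured by group) against the run in which its array was scanned (x axis, runs 1 to 3). In run 2 the knockout points of Cyp7b1 and Cyp8b1 lie below the heterozygous points, while those of Cyp7a1 and Cyp27a1 overlap.

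The genes around the 10 enzymes are given list by list, where of all genes 10.8% were called at 12 months and 22.1% at 3 months. Of 9 tested further enzymes of the pathway, 3 fell and 0 rose at 12 months, with a median of -0.28, and 5 fell and 0 rose at 3 months, with a median of -0.40. Akr1c14, a 3-alpha-hydroxysteroid dehydrogenase, fell by 0.79 ± 0.14 at 12 months (adjusted p = 0.00102) and fell by 0.62 ± 0.14 at 3 months (adjusted p = 0.00467). Its signal was 671 ± 128 in KO_12M and 1163 ± 80.2 in Het_12M, and 618 ± 39.5 in KO_3M and 957 ± 102 in Het_3M (SD, n = 3 each). Slc27a2, an acyl-CoA synthetase, also fell (-0.66 ± 0.15 at 12 months and -0.46 ± 0.15 at 3 months), as did Abcd3, a peroxisomal membrane transporter (-0.49 ± 0.12 and -0.40 ± 0.12). At 3 months Acot8, a peroxisomal thioesterase, fell (-0.73 ± 0.15), and so did Cyp46a1, a cholesterol hydroxylase known from brain (-0.81 ± 0.20), which did not reach the array median in any KO_3M liver. In the fit with a scan run block 0 of the 9 were called at 12 months, and 1, Scp2, was called higher (0.78, adjusted p = 0.0334) and 0 lower at 3 months. Under median scaling 1 of the 9 rose and 2 fell at 3 months.

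Among 14 tested regulators of the pathway, 4 fell and 1 rose at 12 months (10.8% of all genes were called), and 3 fell and 1 rose at 3 months (22.1% of all genes). Nr0b2, the repressor SHP, had a signal of 259 ± 73.6 in KO_12M and 200 ± 62.2 in Het_12M, and of 152 ± 34.6 in KO_3M and 515 ± 153 in Het_3M (SD, n = 3 each). It fell by 1.64 ± 0.26 at 3 months (adjusted p = 0.000318), and its log2 change at 12 months was 0.36 ± 0.26 (adjusted p = 0.427). Nr1h4, the bile acid receptor FXR, fell by 0.66 ± 0.13 at 12 months (adjusted p = 0.00352), and its change at 3 months was 0.30 ± 0.13 (adjusted p = 0.112). Ppara, a fatty acid receptor, fell by 0.84 ± 0.18 at 12 months (adjusted p = 0.00577). Nr1i3, a xenobiotic receptor, fell at both ages (-0.77 ± 0.16 at 12 months and -0.57 ± 0.16 at 3 months). Hnf4a fell by 0.39 ± 0.12 at 12 months (adjusted p = 0.0404) and fell by 0.35 ± 0.12 at 3 months (adjusted p = 0.0391). Jun rose by 0.87 ± 0.22 and 0.92 ± 0.22. Of the 14, a scan run block left 0 called at 12 months, and 1 higher and 0 lower at 3 months. Under median scaling 3 rose and 1 fell at 3 months.

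Of 10 tested transporters, 5 fell and 1 rose at 12 months, with a median of -0.54, and 3 fell and 0 rose at 3 months, with a median of -0.30, where 10.8% and 22.1% of all genes were called. Slc10a1, the bile acid importer NTCP, fell by 0.87 ± 0.13 at 12 months (adjusted p = 0.000263) and fell by 0.56 ± 0.13 at 3 months (adjusted p = 0.00555). Abcb4, the targeted gene, had log2 changes of -1.07 ± 0.14 at 12 months and -1.15 ± 0.14 at 3 months, both called. The anion importers Slco1a1 and Slco1b2 fell at 12 months (-0.85 ± 0.14 and -0.71 ± 0.14), and at 3 months Slco1a1 fell by 0.49 ± 0.14. The gene that rose at 12 months, named after its value was seen, was the bile salt export pump Abcb11 (0.65 ± 0.13, adjusted p = 0.00322). Of the 10, a scan run block left 0 called at 12 months and 1 was called lower at 3 months. Under median scaling 1 rose and 1 fell at 3 months.

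Clock genes, which bear on the rhythmic Cyp7a1, also differed between the groups, and the time of day at which the livers were taken is not given in the sources used here. Of 9 tested, 4 fell and 0 rose at 12 months, and 2 rose and 2 fell at 3 months (4 and 0 under median scaling), where 10.8% and 22.1% of all genes were called. Dbp, a clock output factor known to act on rodent Cyp7a1, fell by 2.37 ± 0.55 at 12 months (adjusted p = 0.00932), with a signal of 310 ± 312 in KO_12M and 1083 ± 151 in Het_12M (SD, n = 3 each). Its change at 3 months was 0.92 ± 0.55 (adjusted p = 0.246). At 12 months Per3 (-1.02), Nr1d2 (-1.01) and Cry2 (-0.84) also fell. At 3 months Clock (-1.07), which did not reach the array median in any KO_3M liver, and Cry2 (-0.76) fell. The genes counted as higher at 3 months were Per1 and Per2, which reached the array median in no Het_3M liver and are given as a description. Per1 had a signal of 126 ± 31.4 in KO_3M and 13.1 ± 4.52 in Het_3M, and was at or above the median of its array in KO_3M alone. In the fit with a scan run block 1 clock gene was called, lower at 12 months, and the 3-month differences of several turned, with Clock at 0.21, Dbp at -1.63, Per3 at -0.59 (0.48 without the block) and a list median of -0.43, against 0.68 without the block. The part of the clock genes in the Cyp7a1 result was not tested.

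Cyp7b1 is itself male-biased in mouse liver, and a list of such genes is given beside it. Of 7 tested, 3 fell and 0 rose at 12 months, and 3 fell and 1 rose at 3 months (2 and 1 under median scaling), where 10.8% and 22.1% of all genes were called. The list median was -0.70 at 12 months and -0.09 at 3 months (0.095 under median scaling). Hsd3b5, a steroid dehydrogenase of male mouse liver, had a signal of 4.3 to 9.2 in KO_12M and 1668.2 to 2482.6 in Het_12M, and of 2.1 to 130.5 in KO_3M and 1671.7 to 2233.7 in Het_3M. It lay at the dim end of the arrays in most knockout livers and reached the array median in 1 of the 6, so no fold is given. At 12 months Slco1a1 and Cyp2d9 (-0.70 ± 0.15) also fell, and at 3 months Elovl3 fell (-2.89 ± 0.35), Slco1a1 fell and the complement gene C6 rose (1.10 ± 0.16). In the fit with a scan run block 1 male-biased gene was called lower at 12 months, and 1 lower and 1 higher at 3 months. The part of these genes in the Cyp7b1 result was not tested.

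The genes most like each called enzyme over the 12 arrays were ranked by Pearson's r of log2 signals, as a description of arrays that fall into 4 groups. For Cyp7b1 they were Hsd11b1 (0.963), Cyp2c54 (0.960) and Zfand2b (0.955). For Cyp8b1 they were Glrx (0.952), Adtrp (0.941) and Fam126b (0.940). Among the enzymes themselves, Cyp8b1 and Cyp7b1 were the most alike of the pairs with a called gene, with an r of 0.906, and Cyp27a1 and Acox2 followed with 0.883. For Cyp27a1 the list was Slc23a1 (0.994), Enox2 (0.930) and Cyp2c68 (0.927). For Cyp7a1 it was Slc15a4 (0.919), Exosc7 (0.872) and Arsa (0.855), and Cyp7a1 had an r of -0.563 with Cyp7b1. For Amacr it was Abat (0.869), F11 (0.863) and Bnip2 (0.863).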

How the data were processed

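The deposited table holds linear intensity values (MAS 5.0 signals), which the authors obtained with that software, per the submitters' processing notes and the design text. The trimmed mean of the middle 2 to 98% of each array lay at 150.05 to 150.07, so the deposited intensities had already been scaled, with settings that the labels do not state. Scanner files gave the batches. With 12 arrays, their number limits how precise a value can be.

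Arrays were brought to a common trimmed mean and log2(signal + 16) was taken, which shrinks fold changes of dim genes. Of 22690 probe sets, 64 were controls, 20380 had a single gene symbol and 691 had several. The probe set of highest mean log2 signal represented a gene, and a gene was tested if its signal reached the array median on at least 3 of 12 arrays (8217 genes; 11881 probe sets). limma 3.58.1 in R 4.3.3 fitted 4 group means with an intensity trend over all 12 arrays (8 residual degrees of freedom), and p-values were Benjamini-Hochberg adjusted over all genes, or over all probe sets for the second member of a pair. After ±, a log2 change has an SE and a signal an SD. The fit was tested on simulated data. Python 3.11.15, pandas 2.3.3 and matplotlib 3.10.9 prepared the tables and plots.

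Alternatives changed the offset, filter, scaling, choice of probe set, variance model, samples in the fit, scan run, replicate number and actin ratio, and left out arrays; 2 of them, which leave out arrays with a fluidics error or with another fluidics script, were added after the data were seen. The labels do not say that same-numbered mice are related, so replicate numbers were not used as pairs. In deviations from the group means, 1 of 18 same-numbered pairs correlated above 0.1, with r from -0.199 to 0.179. With 3 mice in a group these values cannot exclude a relation. Named genes were all 10 enzymes, up to 4 called genes of smallest p from each pathway list, and the 3 genes most like each called enzyme. The members and lists were chosen with earlier results of these data known. Probe sequences were not used here.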

Additional observations from a re-analysis of the deposited data

Results flagged for a closer look

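The interaction, which subtracts the 3-month knockout effect from the 12-month one, passed the test in limma over all 8217 genes for 5 genes of the pathway and clock lists (of which Per1 is only a description), and for none of the 10 enzymes. For Nr0b2 it was 2.0 ± 0.36 (SE, adjusted p = 0.018), with a log2 change of 0.36 at 12 months and -1.64 at 3 months. For Nr1h4 it was -0.95 ± 0.19 (adjusted p = 0.026), with changes of -0.66 and 0.30. For Ppara it was -1.14 ± 0.25 (adjusted p = 0.0434), with changes of -0.84 and 0.30. For Per1 it was -2.82 ± 0.45, with a signal of 19.3 ± 11.1 in KO_12M and 34.9 ± 13.8 in Het_12M, and 126 ± 31.4 in KO_3M and 13.1 ± 4.52 in Het_3M (SD, n = 3 each). KO_3M alone reached the array median and carried Per1 through the filter, so the Per1 value is a description and gets no p. For Per3 the interaction was -1.5 ± 0.34 (adjusted p = 0.0466), with changes of -1.02 and 0.48. With scan run as a block none of the 5 passed, at 1.72 (adjusted p = 0.152) for Nr0b2, -1.22 (0.0864) for Nr1h4, -1.16 (0.154) for Ppara, -2.14 for Per1 and -0.59 (0.369) for Per3. Groups of 3 mice are too small to test single mice as outliers.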

How the results depend on the processing

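Across the 29 alternatives for single enzymes, no enzyme that was called changed direction, and none was called for the interaction. Counts of calls add a 2-fold threshold, which makes 30 alternatives (29 for the interaction). At 12 months the count of 4 enzymes called became 1 with scan run as a block (1.39% of all genes were called), 2 without Het_12M mouse 1 (7.59%), 2 without the arrays with a fluidics error (7.45%, an alternative added after the data were seen) and 2 when a 2-fold change was required (3.44%). At 3 months the count of 3 became 0 with scan run as a block (3.54%) and 5 with the actin ratio as a covariate (13.9%). For KO_12M against KO_3M the count of 0 became 1 under quantile normalization (4.05%), 4 under median scaling (23.3%) and 1 without KO_12M mouse 1 (5.32%). Leaving out each array in turn gave 2 to 4 enzymes at 12 months, 2 to 4 at 3 months, 0 to 1 between the knockout ages, 0 between the heterozygous ages and 0 for the interaction. In the same order, 7.59% to 11.1%, 15.2% to 23.7%, 4.69% to 8.82%, 0.0122% to 1.08% and 0.219% to 1.31% of all genes were called. The cause was not tested. With the replicate number as a block, 3 enzymes were called at 12 months (Amacr was lost, adjusted p = 0.0745), 3 at 3 months and 0 in the other comparisons. Of all genes 10.1% were then called at 12 months and 20.7% at 3 months. The share was 7.81% between the knockout ages and 0.523% between the heterozygous ages. For the interaction it was 0.56%, or 46 genes, against 87 without the block. Over all genes, the 889 calls at 12 months ranged from 114 (scan run as a block) to 1044 (array weights), the 1820 at 3 months from 291 (scan run as a block) to 2011 (no filter), the 775 between the knockout ages from 72 (actin ratio) to 1918 (median scaling), the 56 between the heterozygous ages from 1 (without Het_3M mouse 2) to 191 (array weights), and the 87 for the interaction from 14 (scan run as a block) to 205 (median scaling). Under median scaling the share of higher calls was 45.6% at 12 months, 72.1% at 3 months, 9.02% between the knockout ages, 32.1% between the heterozygous ages and 11.2% for the interaction, against 59.1%, 44.7%, 59.6%, 48.2% and 56.3% on the common trimmed mean. Quantile normalization gave 47.4% between the knockout ages. Under median scaling the median log2 change of all genes was 0.11 at 3 months, against -0.06. For single enzymes, 1393 of the alternative values stayed on the same side of the threshold, 16 gained a call and 31 lost one. Signals near the 10th percentile of an array, 4.1 to 9.4, limit what can be read from the dim probe set of Cyp7a1.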

Other observations

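Among the genes around the enzymes, the knockout livers of the older age differed from those of the younger in a few regulators, in limma over all 8217 genes. Nr1h4 was lower in KO_12M than in KO_3M (-0.68 ± 0.13, adjusted p = 0.00802), with a signal of 280 ± 16.1 in KO_12M and 461 ± 64.2 in KO_3M (SD, n = 3 each). Ppara was lower too (-0.76 ± 0.18, adjusted p = 0.0173), as was Fdx1, the electron carrier that serves Cyp27a1 in mitochondria (-0.57 ± 0.12, adjusted p = 0.0109), and the exporter Abcc3 (-0.56 ± 0.14, adjusted p = 0.0221). With scan run as a block Nr1h4 kept its call (-0.76, adjusted p = 0.0284) and Ppara (-0.52, adjusted p = 0.186), Fdx1 (-0.59, adjusted p = 0.0562) and Abcc3 (-0.53, adjusted p = 0.123) did not. In the heterozygous livers Nr0b2 was lower in Het_12M than in Het_3M (-1.30 ± 0.26, adjusted p = 0.0308), with a signal of 200 ± 62.2 in Het_12M and 515 ± 153 in Het_3M, and with scan run as a block it did not pass (-1.45, adjusted p = 0.185). Between the heterozygous ages, that block sets Het_3M mouse 1 alone, whose source label names the other age, against the Het_12M livers. Between the knockout ages, it sets KO_12M mouse 3 alone against the KO_3M livers, for Nr1h4 as for the other genes. The highest signal of that array was 6328.3, against at least 9470.5 on the other arrays. Under that block 8 of 9 hepatocyte markers were also called lower in KO_12M than in KO_3M, where 6.84% of all genes were called. Among them were Alb (-0.99) and Ttr (-0.91), with a list median of -0.90 (1 of 9 and -0.43 without the block). The part of these markers in the results was not tested. These genes were named after their values were seen.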
